A study of Homo sapiens with 6 samples.

Results

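The genes described here are 2 inhibitors of p53, MDM2 and MDM4, and 7 genes that p53 is known to activate, AEN, ZMAT3, BTG2, FDXR, RRM2B, TP53I3 and XPC, measured in cells that lack p53. They were chosen by name, and every probe of each was taken. Of these 9 genes, 7 had a probe of that symbol in the array annotation, with 13 probes among the 47319 of the array, and 11 of the 13 passed the filter on low signal. BTG2 and FDXR had no probe of that symbol and were not analysed here beyond their promoter sequence.

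Gene expression was profiled in p53-null HCT116 cells, HCT116 being an established human colorectal carcinoma line. One group of 3 samples received TIC10, the small molecule ONC201, at 10 µM, and the other group of 3 received 0.05% DMSO, the solvent. All 6 samples were harvested 48 h after treatment in fresh complete medium, and all shared the p53-null background, so no sample with p53 was available for comparison. The labels do not say whether the line is 1 clone or how p53 was lost. The gene for p53 itself was not analysed here, so the label of the line was not checked on it.

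p53 is a transcription factor that is kept scarce in unstressed cells by MDM2, a ubiquitin ligase that marks it for degradation, and by MDM4, a relative of MDM2 that binds and blocks its activation domain. After DNA damage and other stress p53 is released and binds paired decameric elements in its target genes, MDM2 among them, which closes a feedback loop. The targets act in apoptosis, cell cycle arrest, DNA repair and metabolism, and several are also reached by other stress regulators such as ATF4 and CHOP, which do not need p53.

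The promoters of 3 members that the results turn on are shown. They differ in whether the search described here found paired p53 half-sites in the window at the start site. Sequences are from RefSeq (GRCh38.p14), 250 bases before to 50 bases after the annotated start, 5′ to 3′ along the gene. Capitals mark 2 adjoining p53 half-sites with at most 2 mismatches to the decameric consensus in all and the central C and G kept. The windows are AEN at chr15:88621090-88621389 on the plus strand, MDM2 at chr12:68808767-68809066 on the plus strand and ZMAT3 at chr3:179071760-179072059 on the minus strand.
AEN: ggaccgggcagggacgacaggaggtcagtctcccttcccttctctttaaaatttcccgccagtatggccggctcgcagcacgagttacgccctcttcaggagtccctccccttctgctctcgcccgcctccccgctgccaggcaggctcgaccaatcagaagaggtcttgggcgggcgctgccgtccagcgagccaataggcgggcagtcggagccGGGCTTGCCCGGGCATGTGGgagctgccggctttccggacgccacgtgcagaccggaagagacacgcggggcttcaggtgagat
MDM2: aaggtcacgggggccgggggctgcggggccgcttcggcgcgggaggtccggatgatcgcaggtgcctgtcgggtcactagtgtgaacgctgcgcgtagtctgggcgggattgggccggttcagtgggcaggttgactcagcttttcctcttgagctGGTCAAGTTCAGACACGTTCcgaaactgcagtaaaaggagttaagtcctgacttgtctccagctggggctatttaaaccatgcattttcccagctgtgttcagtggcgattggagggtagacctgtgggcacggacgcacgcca
ZMAT3: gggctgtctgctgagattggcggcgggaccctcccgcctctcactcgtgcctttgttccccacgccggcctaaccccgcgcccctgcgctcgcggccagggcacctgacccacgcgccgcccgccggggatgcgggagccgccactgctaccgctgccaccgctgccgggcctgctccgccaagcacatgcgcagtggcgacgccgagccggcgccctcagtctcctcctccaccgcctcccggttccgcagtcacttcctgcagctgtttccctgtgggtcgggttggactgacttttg

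In AEN, which encodes an apoptosis-enhancing nuclease, the first half-site matched the consensus exactly and began 34 bases before the start, and the second had 2 mismatches. In MDM2 the half-sites began 94 and 84 bases before the start and had 1 mismatch each, and the same element lay in a second, overlapping MDM2 window. The ZMAT3 window held no such pair and no exact half-site. The table listed 13 windows for 8 of the 9 members, with none used for RRM2B. An exact half-site was in 2 of the 13, one of AEN and one of FDXR, which encodes the mitochondrial ferredoxin reductase, against 6.63% of all 35116 windows. A pair was in 3 of the 13 windows, from 2 genes, as 2 overlapping MDM2 windows held the same element. Of all windows 0.285% held a pair. The limit on mismatches and the absence of a gap were set after the member windows had been read, so this contrast is not independent evidence. The core of the composite element bound by ATF4 and CHOP, searched as TGATGNAA on both strands, was in 0 of the 13 and in 3.62% of all windows. A match describes these letters in this window and shows no binding, and known p53 elements can lie outside it. The search needed the central C and G in each half-site and allowed no gap, so it can also miss p53 elements inside a window.

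The arrays differed before normalization. The median bead intensity was 47.0, 46.0 and 49.6 on the DMSO arrays and 43.0, 43.6 and 42.6 on the TIC10 arrays, so every DMSO array was the brighter. DMSO replicate 3 stood apart: its normalized log2 values correlated at 0.968 and 0.972 with the other DMSO arrays, which correlated at 0.995 with each other, over the 29440 kept probes. Values without it are given beside the results that it moved most. The labels name the arrays replicates but not separate cultures, so the p-values may rest on technical spread alone, and 3 arrays a group limit the precision. Of 7 detected epithelial marker genes EPCAM lay between percentiles 99.0 and 99.5 of its array and CDH1 between 93.8 and 96.1, while VIL1, CEACAM5 and LGALS4 failed the filter. Of 10 markers of other cell types CD3E, PECAM1 and VWF failed the filter, and CD68, a lysosomal glycoprotein used as a macrophage marker, rose by 1.78 on the log2 scale and was the 1 marker of that list called, while its other kept probes changed by 0.57 (adjusted p = 0.0891) and 0.61 (0.0267). The summed intensity of the 7 kept markers of other cell types was 754.5 to 1054.9 on DMSO arrays and 1162.3 to 1335.9 on TIC10 arrays, and its part in the results was not tested.

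Of the 7 members tested, 1 gene, AEN, was called higher with TIC10 by its brightest kept probe and 0 were called lower, by the moderated test of limma with Benjamini-Hochberg adjustment over all kept probes and a threshold of 0.05. At an unadjusted p under 0.05 these counts were also 1 and 0. Without DMSO replicate 3 the count was 2 higher, AEN and RRM2B, and 0 lower, against 15.7% and 18.6% of all genes. Among all 14534 genes 10.0% were called higher and 13.0% lower, so the count of members was close to that of genes in general. Probe by probe, 4 of 11 kept member probes rose, 2 of AEN and 2 of ZMAT3, and 0 fell, against 8.67% and 9.32% of all kept probes. Normalized values of both groups did not overlap in 3 of the 7 genes, MDM4, AEN and RRM2B, all with TIC10 above, against 18.5% of all genes with TIC10 above and 23.1% with TIC10 below. The median log2 change of the 7 genes was 0.57, and that of all genes was -0.01. The member median was 0.24 without DMSO replicate 3, with arrays scaled to one median 0.38 and in the authors' processed series matrix -0.04. In bulk samples fewer cells of a type and less RNA per cell cannot be told apart.

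**Figure D1:**
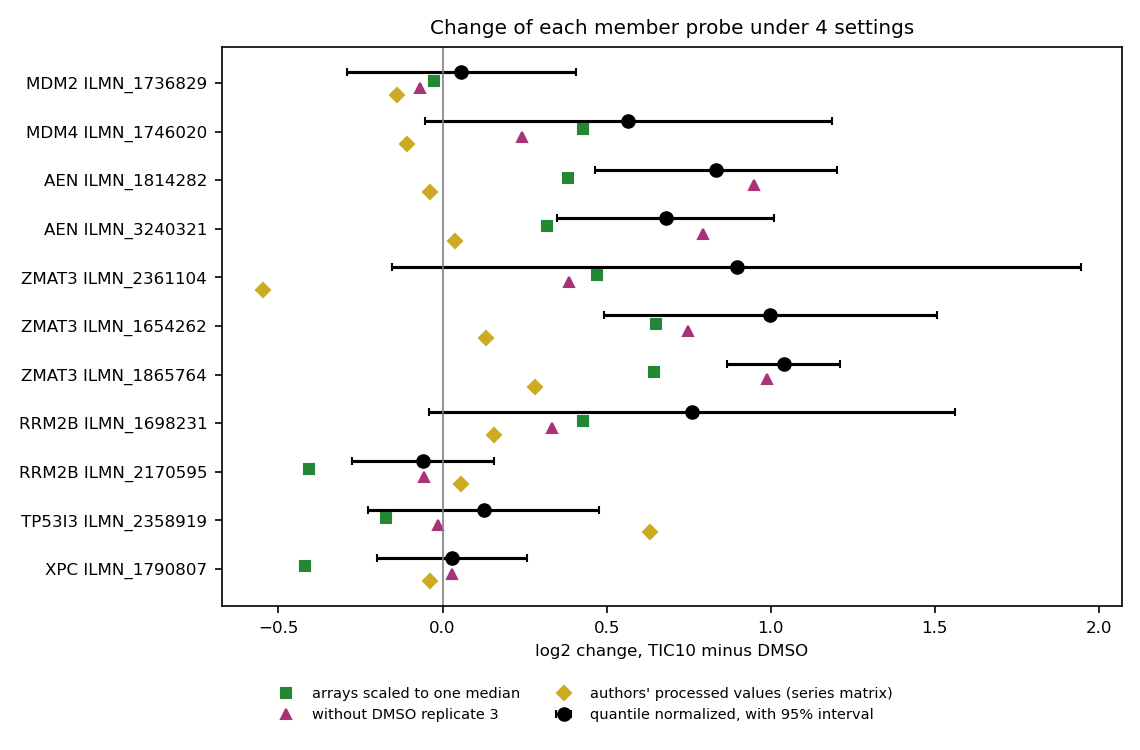
Log2 change of each kept member probe, TIC10 minus DMSO. Points after quantile normalization carry 95% confidence intervals from limma, and points under other settings are drawn without intervals. The 2 AEN probes and 2 of the 3 ZMAT3 probes lie above 0 with intervals that do not reach it after quantile normalization, and the AEN and ZMAT3 changes are smaller in size after scaling to one median and in the authors' processed values.

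The plot of member changes by setting shows that these calls depended on how the arrays were scaled. With each array scaled to one median in place of quantile normalization, 0 of the 11 member probes were called, and the median change of all genes was itself -0.15. Under that scaling 292 genes (2.01%) were called higher and 1687 (11.6%) lower, against 1457 and 1884 in quantile-normalized values. In the authors' processed series matrix 2.39% of kept probes were called higher and 2.14% lower, and 1 of the 11 member probes was, a TP53I3 probe and none of AEN or ZMAT3. The log2 changes in the matrix and in the bead table correlated at 0.573 across kept probes, which are not independent replicates. The slope of matrix changes on bead changes was 0.309. Matrix changes thus tended to be smaller across probes, and sizes in both tables are not directly comparable. A matrix column did not follow the bead column of the same group and number: the correlation of deviations from the group mean ran from -0.485 to 0.113. Whether both tables hold the same hybridizations was not established, and no test joined them.

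The inhibitors of p53 come first. MDM2 was read by 1 kept probe, ILMN_1736829, at bead intensities of 91.5, 60.8 and 55.4 in DMSO and 61.4, 60.3 and 61.6 with TIC10. One DMSO sample was the highest, the other 5 lay close together, and the groups overlapped. The normalized log2 level was 6.43 ± 0.30 (SD, n = 3) in DMSO and 6.49 ± 0.03 (SD, n = 3) with TIC10. The log2 change was 0.06 ± 0.15 (SE), with a 95% interval from -0.29 to 0.41 and a limma adjusted p of 0.859. The interval leaves room for a change of MDM2 in either direction. The second MDM2 probe, ILMN_1814208, failed the filter, at intensities of 37.7 to 44.4 that lay between percentiles 24.1 and 42.0 of their arrays.

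MDM4 read 115.8, 88.0 and 43.9 in DMSO and 101.9, 92.4 and 123.4 with TIC10 (probe ILMN_1746020). DMSO replicate 3 was the lowest of the 6, at percentile 34.2 of its array and so near background, and the groups overlapped in intensity. In normalized log2 values, 7.03, 6.79 and 5.98 in DMSO and 7.18, 7.05 and 7.27 with TIC10, the groups did not overlap. The log2 change was 0.57 ± 0.26 (SE), with an interval from -0.05 to 1.19 and an adjusted p of 0.207, which did not pass the test. Without DMSO replicate 3 the change of MDM4 was 0.24 (adjusted p = 0.116, with 0.0954 to 0.818 over its 15 alternatives).

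**Figure D2:**
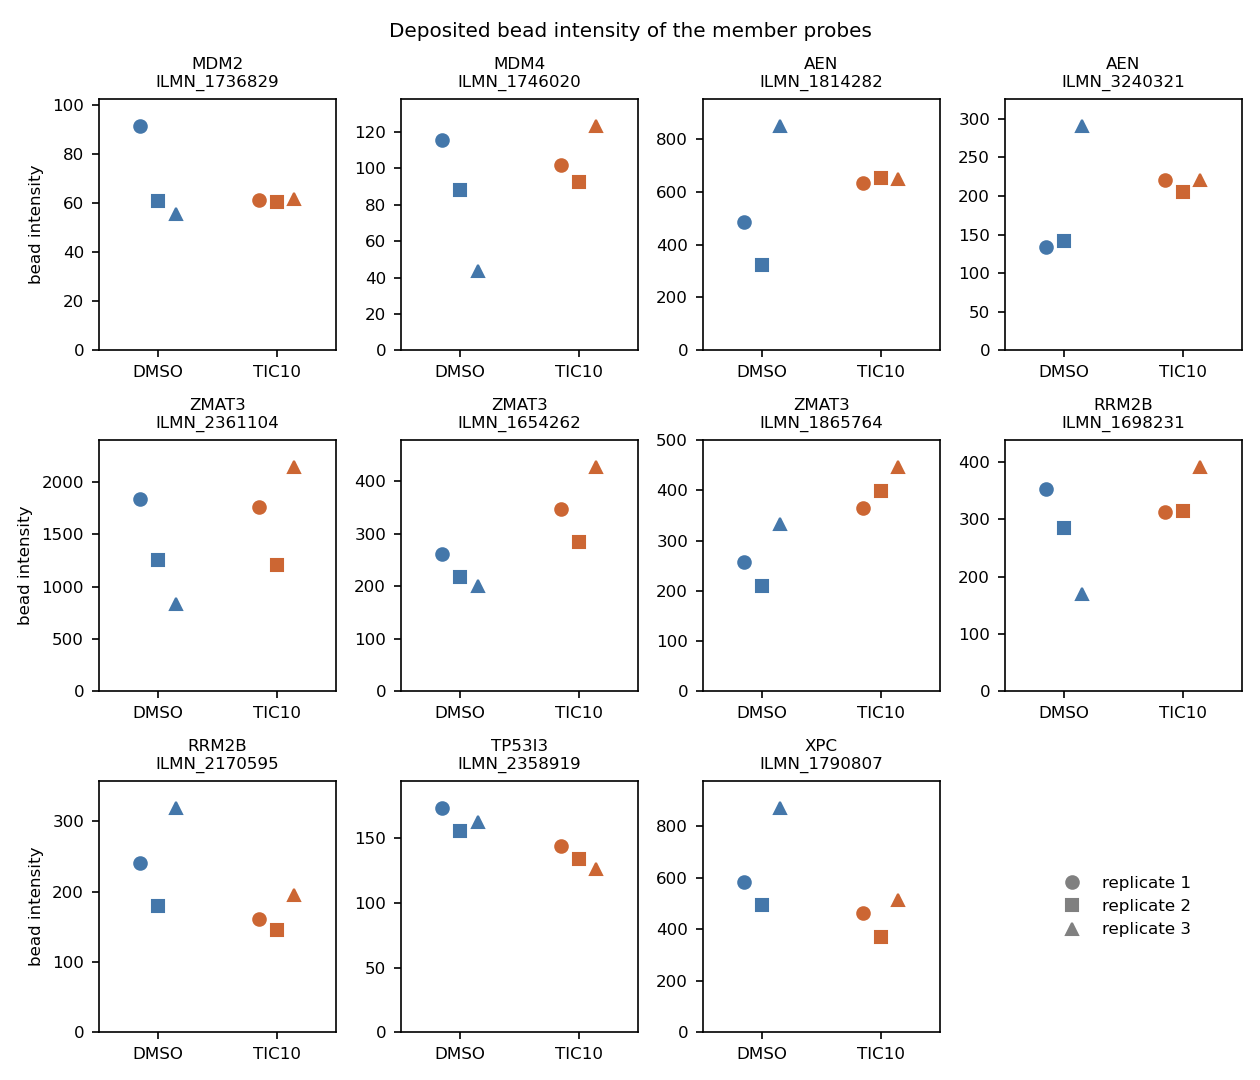
Deposited bead intensity of each kept member probe on a linear axis from 0, with 1 point per array (3 DMSO and 3 TIC10 samples). DMSO replicate 3 is the highest DMSO array for both AEN probes. It is the lowest DMSO array for MDM2, MDM4, ILMN_2361104 and ILMN_1654262 of ZMAT3 and the brightest RRM2B probe.

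AEN, the nuclease whose promoter window is shown above, had 2 kept probes and both rose. ILMN_1814282 read 487, 322 and 848 in DMSO and 632, 650.3 and 649 with TIC10. In these intensities DMSO replicate 3 was the highest of all 6 samples and the groups overlapped, as the plot of bead intensities shows. After quantile normalization the log2 values were 8.87, 8.50 and 9.06 in DMSO and 9.70, 9.73 and 9.49 with TIC10, and the groups did not overlap. The mean went from 8.81 ± 0.29 (SD, n = 3) to 9.64 ± 0.13 (SD, n = 3), a 1.78-fold rise (log2 change 0.83 ± 0.15, SE) with an adjusted p of 0.0128.

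The second AEN probe, ILMN_3240321, read 134.6, 141.5 and 291.0 in DMSO and 220.2, 205.0 and 220.7 with TIC10, again with the highest value on DMSO replicate 3. Its normalized groups did not overlap, and it rose by 0.68 ± 0.14 (SE) on the log2 scale, 1.60-fold, with an adjusted p of 0.0181. Both AEN calls rested on the scaling: with one median the changes were 0.38 and 0.32 (adjusted p = 0.535 and 0.540). In the series matrix they were -0.04 and 0.04 (adjusted p = 0.964 and 0.961). Without DMSO replicate 3 they were 0.95 and 0.79 (adjusted p = 0.000979 and 0.000541), so AEN rose in quantile-normalized values with or without that array. The brightest AEN probe missed the threshold without TIC10 replicate 1 (0.0602) or TIC10 replicate 2 (0.0538), and its adjusted p ran from 0.000979 to 0.964 over 16 alternatives. The other AEN probe missed it without DMSO replicate 2 (0.0653) and without each TIC10 replicate in turn (0.0789, 0.0668 and 0.05003), and ran from 0.000541 to 0.961 over 14.

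ZMAT3 encodes a zinc finger protein that binds AU-rich RNA. By probe ILMN_1865764 the bead intensities were 257.9, 210.3 and 333.4 in DMSO and 365.2, 399.7 and 446.9 with TIC10, so every TIC10 sample was above every DMSO sample before normalization too. The normalized log2 level went from 7.95 ± 0.08 (SD, n = 3) to 8.98 ± 0.06 (SD, n = 3). ZMAT3 rose 2.05-fold by this probe (log2 change 1.04 ± 0.07, SE) with an adjusted p of 0.000486. The call held without each array in turn, with adjusted p from 9.61e-05 to 0.00548. It was not made after scaling to one median (log2 change 0.64, adjusted p = 0.0595) or in the series matrix (0.28, adjusted p = 0.190), where the groups did not overlap either. Over its 14 alternatives the adjusted p ran from 9.61e-05 to 0.190.

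A second ZMAT3 probe, ILMN_1654262, read 262.2, 218.3 and 200.1 in DMSO and 347.3, 284.4 and 427.7 with TIC10, with no overlap. It rose 2.00-fold (log2 change 1.00 ± 0.21, SE; adjusted p = 0.0209). This probe was also low on DMSO replicate 3, by -0.71 on the log2 scale against the mean of the other DMSO samples. Without that array its change was 0.75 (adjusted p = 0.00165). The probe missed the threshold without TIC10 replicate 1 (0.0859) or 3 (0.0828) and after scaling to one median (0.65, adjusted p = 0.0795), and its change in the matrix was 0.13. Its adjusted p ran from 0.00165 to 0.822 over 14 alternatives. The brightest ZMAT3 probe, ILMN_2361104, was the one that stood for the gene and was not called. It read 1840.5, 1251.5 and 837.3 in DMSO and 1763.1, 1206.7 and 2146.0 with TIC10, and the groups overlapped. DMSO replicate 3 minus the mean of the other DMSO samples was -1.53 on the log2 scale. The log2 change was 0.90 ± 0.44 (SE), with an interval from -0.15 to 1.95 and an adjusted p of 0.239 (0.0215 to 0.495 over 16 alternatives). The change was 0.39 without DMSO replicate 3 (adjusted p = 0.193), and in the matrix the change was -0.55 (adjusted p = 0.151), with every TIC10 value below every DMSO value. ZMAT3 taken as the mean of its probes changed by 0.98 (adjusted p = 0.0215), so the choice of probe decided whether the gene was called.

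**Figure D3:**
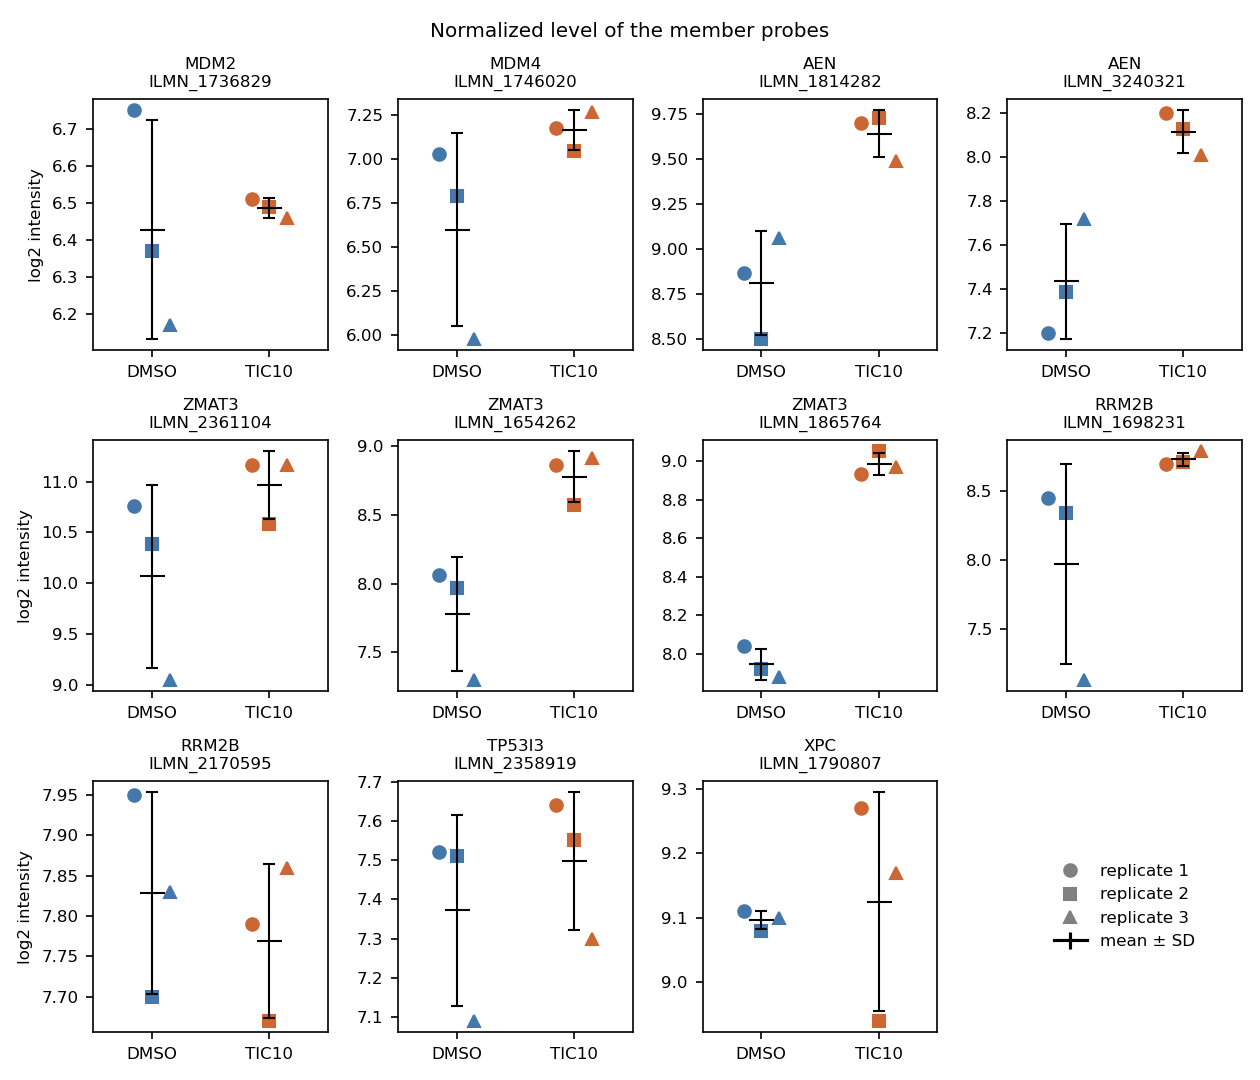
Quantile-normalized log2 intensity of each kept member probe, with 1 point per array and the mean and SD of the 3 DMSO and the 3 TIC10 samples. The TIC10 values lie above the DMSO values without overlap for MDM4, both AEN probes, ILMN_1654262 and ILMN_1865764 of ZMAT3 and ILMN_1698231 of RRM2B.

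RRM2B, a p53-inducible small subunit of ribonucleotide reductase that supplies deoxynucleotides outside S phase, was read differently by its 2 probes. ILMN_1698231 read 352.6, 284.6 and 170.2 in DMSO and 313.2, 314.1 and 391.7 with TIC10. DMSO replicate 3 was again the lowest, with -1.26 on the log2 scale against the mean of the other DMSO samples, and the normalized groups did not overlap. The log2 change was 0.76 ± 0.33 (SE), with an interval from -0.04 to 1.56 and an adjusted p of 0.191. Without DMSO replicate 3 it was 0.33 and passed (adjusted p = 0.0130, with 0.0130 to 0.726 over 16 alternatives). ILMN_2170595 read 241.1, 179.2 and 319.2 in DMSO and 161.3, 145.3 and 195.7 with TIC10, and its normalized groups overlapped. Its log2 change was -0.06 ± 0.09 (SE), with an interval from -0.28 to 0.16 (adjusted p = 0.752), and the plot of normalized values shows the contrast between both probes.

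TP53I3, which encodes a quinone oxidoreductase, read 173.7, 155.7 and 163.1 in DMSO and 144.3, 133.9 and 126.1 with TIC10 by probe ILMN_2358919. Before normalization every TIC10 sample was below every DMSO sample. After quantile normalization the values were 7.52, 7.51 and 7.09 in DMSO and 7.64, 7.55 and 7.30 with TIC10, and the groups overlapped. The log2 change was 0.12 ± 0.15 (SE), with an interval from -0.23 to 0.48 and an adjusted p of 0.664. In the series matrix all 3 TIC10 values, 0.24, 0.24 and 0.12, were above the DMSO values, which were -0.43 on each array, and TP53I3 rose there by 0.63 ± 0.11 (SE) with an adjusted p of 0.00260. After scaling to one median the change was -0.17 (adjusted p = 0.243, with 0.00260 to 0.952 over 16 alternatives). The direction of TP53I3 thus differed between the scales. The second TP53I3 probe, ILMN_1651967, failed the filter at intensities of 35.2 to 49.3.

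XPC, which recognizes DNA distortions at the start of global nucleotide excision repair, read 584.6, 493.4 and 871.7 in DMSO and 463.9, 368.9 and 513.8 with TIC10 (probe ILMN_1790807). DMSO replicate 3 was the brightest and the groups overlapped. The normalized level was 9.10 ± 0.01 (SD, n = 3) in DMSO and 9.12 ± 0.17 (SD, n = 3) with TIC10. The log2 change was 0.03 ± 0.10 (SE), with an interval from -0.20 to 0.26 and an adjusted p of 0.898. That interval excludes a rise of the size seen for ILMN_1865764 of ZMAT3.

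Some members shared a low value on DMSO replicate 3, among them the called ZMAT3 probe ILMN_1654262 (-0.71 on the log2 scale against the mean of the other DMSO arrays). MDM4, the brightest ZMAT3 probe and the brightest RRM2B probe were all low on DMSO replicate 3 and correlated at 0.963 to 0.988 with each other. MDM2 and TP53I3 correlated with these 3 at 0.700 to 0.764, AEN at 0.385 to 0.418 and XPC at 0.0942 to 0.344. By the highest correlation over the 6 arrays among 14527 other genes, the gene most like MDM4 was COA8 (r = 0.999), that most like ZMAT3 was CEP19 (r = 0.998) and that most like RRM2B was TM7SF3 (r = 0.996). AEN was most like RPL28 (r = 0.997), MDM2 like PUS10 (r = 0.985), TP53I3 like GPR143 (r = 0.986) and XPC like KLK14 (r = 0.974). These correlations describe 6 points that share arrays and treatment, and 235 genes exceeded 0.95 with MDM4.

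Other known p53 targets were counted on a list of 59 genes, of which 53 were tested. TIC10 raised 14 and lowered 5 by limma at the same threshold, with a median log2 change of 0.12 against -0.01 for all genes. The list was split by whether a gene is also a known target of ATF4 or CHOP. Of the 9 with such a link 7 rose and 0 fell, with a median of 1.39, and at an unadjusted p under 0.05 the counts were 8 and 0. Of the 44 without one 7 rose and 5 fell, with a median of 0.02. Among all genes 10.0% were called higher and 13.0% lower. The difference between both groups of genes was not tested. Both the list and its split were chosen with earlier results of these data known, so the counts are not independent evidence.

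**Figure D4:**
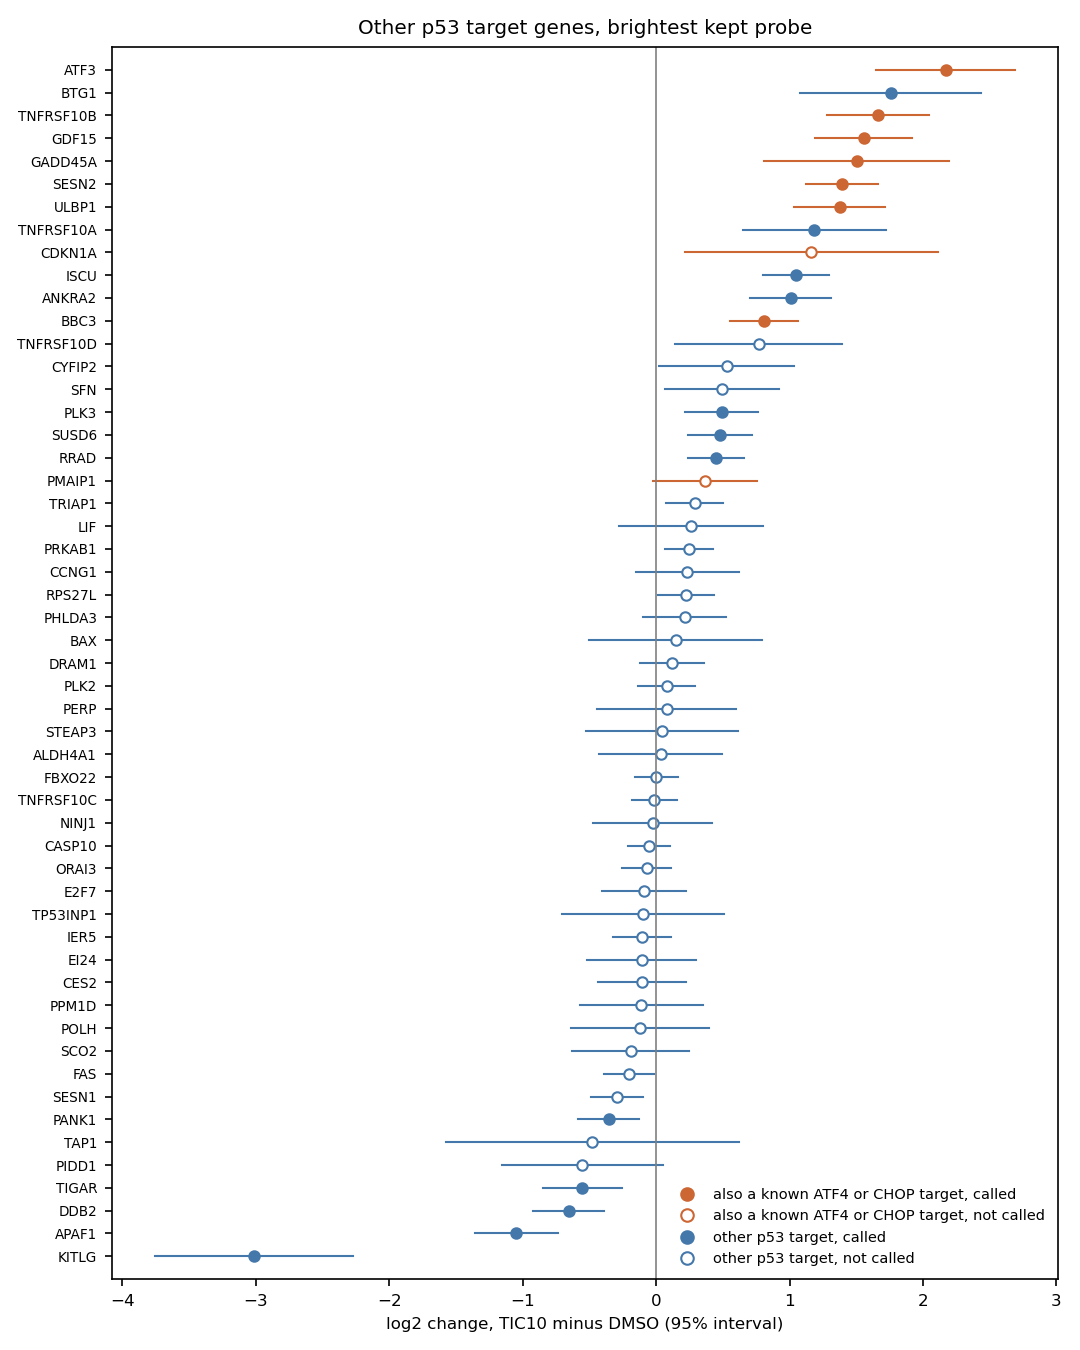
Log2 change, TIC10 minus DMSO, of the tested p53 target genes other than the members, by their brightest kept probe. Each gene has 1 point, coloured by a known link to ATF4 or CHOP. Of the 9 linked genes 7 were called higher, and the 44 others lie on both sides of 0.

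Among the linked targets ATF3, a stress-induced transcription factor, read 449.6, 409.9 and 377.0 in DMSO and 1185.9, 1336.9 and 1675.1 with TIC10, with no overlap. ATF3 rose by 2.17 ± 0.22 (SE; adjusted p = 0.00146), though its other kept probe rose by only 0.29. TNFRSF10B, the TRAIL death receptor DR5, rose by 1.66 ± 0.16 (SE; adjusted p = 0.00127), and its other kept probes changed by 1.32 and 0.74. GDF15, a stress-induced cytokine, rose by 1.55 ± 0.15 (SE; adjusted p = 0.00132), and GADD45A by 1.505 ± 0.29 (SE; adjusted p = 0.0147), which was called in 3 of the 6 fits that left out an array (0.0624 at the highest, without TIC10 replicate 1). The other kept GADD45A probe changed by 1.63 (adjusted p = 0.00144). The plot of p53 targets shows that the linked genes that were not called were CDKN1A, the cell cycle inhibitor p21, and PMAIP1, the BH3-only protein NOXA, both singled out after their values were seen. CDKN1A changed by 1.16 ± 0.39 (SE; adjusted p = 0.0981) in the bead table, and by 0.98 in the series matrix, where it passed (adjusted p = 0.00103). The bead change was 0.70 without DMSO replicate 3 and passed (adjusted p = 0.00278), while the other kept CDKN1A probe changed by 0.23 (adjusted p = 0.356). PMAIP1 changed by 0.37 ± 0.16 (SE; adjusted p = 0.194).

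Of the targets without the link, BTG1, an antiproliferative relative of BTG2, rose by 1.76 ± 0.28 (SE; adjusted p = 0.00771). TNFRSF10A, the TRAIL receptor DR4, rose by 1.19 ± 0.22 (SE; adjusted p = 0.0136), but it missed the threshold without TIC10 replicate 1 (0.0628) and its change in the matrix was -0.04. ISCU, a scaffold for iron-sulphur cluster assembly, rose by 1.05 ± 0.10 (SE; adjusted p = 0.00137). Also called, though not by the naming rule, were ANKRA2, PLK3, SUSD6 and RRAD, which rose, and APAF1, DDB2, TIGAR and PANK1, which fell. The other kept APAF1 probe changed by -0.13 (limma adjusted p = 0.392). Of the 6 fits that each left out an array, PLK3 was called in 1 and SUSD6, RRAD, TIGAR and PANK1 in 2, with the highest adjusted p between 0.0581 for RRAD and 0.152 for PANK1. KITLG, the ligand of the receptor KIT, fell by 3.01 ± 0.31 (SE; adjusted p = 0.00160), and its other kept probes changed by -3.05 and -0.76. Without DMSO replicate 3 the counts were 8 higher and 0 lower for the linked list, and 13 higher and 8 lower for the others. Of all genes 15.7% were then called higher and 18.6% lower. With arrays scaled to one median the counts were 6 and 0 for the linked list, and 1 and 4 for the others. There 2.01% of all genes were called higher and 11.6% lower. In the series matrix, where 3.32% of genes were called higher and 2.68% lower, the counts were 8 and 0 for the linked list and 5 and 1 for the others.

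Genes that work with the members were counted on further lists. The counts of each list are read against 10.0% of all genes called higher and 13.0% called lower. Those shares were 15.7% and 18.6% without DMSO replicate 3. With arrays scaled to one median they were 2.01% and 11.6%, and in the matrix 3.32% and 2.68%. Among 32 tested regulators and relatives of p53, 5 rose and 4 fell, with a median of 0.02. AURKA, a mitotic kinase that phosphorylates p53, fell by 2.26 ± 0.11 (SE), the checkpoint kinases CHEK1 and CHEK2 fell by 1.09 ± 0.10 and fell by 0.92 ± 0.14, and PPP1R13L, an inhibitor of p53 also known as iASPP, rose by 0.79 ± 0.19 (SE). In the series matrix AURKA changed by -0.34 (adjusted p = 0.116), CHEK1 by -0.18 (0.525) and CHEK2 by -0.17 (0.631), none of which passed. Outside the naming rule, the other genes called were KAT5, RPL5, RPL23 and CSNK1A1, which rose, and WRAP53, which fell. Of the 6 fits that each left out an array, KAT5 was called in 1, CSNK1A1 and WRAP53 in 2, RPL23 in 4 and RPL5 in 5, and the other CSNK1A1 probes changed by -0.08 and -0.13. The counts of regulators were 0 higher and 4 lower with arrays scaled to one median, 1 and 1 in the matrix, 7 and 5 without DMSO replicate 3 and 0 and 3 without TIC10 replicate 1. Without any other single array 2 regulators were higher.

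Among 27 nucleotide excision repair genes, the pathway of XPC, 2 rose and 8 fell with a median of -0.01. The counts were 1 higher and 5 lower with arrays scaled to one median, where the median was -0.36. They were 1 and 2 in the matrix, 4 and 9 without DMSO replicate 3, and 2 and 5 without each TIC10 array in turn. The sliding clamp PCNA fell by 1.78 ± 0.11 (SE; its other kept probes changed by -0.24 and -0.55), the ligase LIG1 fell by 1.36 ± 0.29 and the single-strand binding subunit RPA3 fell by 1.20 ± 0.08, while the nuclease subunit ERCC1 rose by 1.24 ± 0.13. The other kept ERCC1 probes changed by less, by 0.35 (limma adjusted p = 0.265), 0.76 and 0.67. In the matrix LIG1 changed by -0.06 (adjusted p = 0.944). DDB2, the damage sensor that works ahead of XPC and is itself a p53 target, fell by 0.66 ± 0.11 (adjusted p = 0.00946) and was singled out after its value was seen. Several of these repair genes also serve DNA replication.

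In the deoxynucleotide supply list, the pathway of RRM2B, 7 of 17 genes fell and 1 rose, with a median log2 change of -0.67. That median was -0.37 without DMSO replicate 3 and -0.06 in the matrix. Thymidine kinase TK1 fell by 2.09 ± 0.17 (SE), RRM2, the S-phase counterpart of RRM2B, fell by 2.06 ± 0.25, thymidylate synthase TYMS fell by 1.97 ± 0.11 and the dUTPase DUT fell by 1.65 ± 0.19, though the other DUT probes changed by 0.43 and -1.28. The gene that rose was the mitochondrial thymidine kinase TK2, by 0.30 ± 0.08, named after its value was seen. RRM2 read 1261.5, 1432.1 and 1221.9 in DMSO and 207.7, 203.9 and 203.7 with TIC10, with no overlap, whereas neither RRM2B probe passed the test. In the matrix RRM2 changed by -0.19 (adjusted p = 0.475), and 0 genes of the list were higher and 4 lower.

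Of 22 ferredoxin and iron-sulphur genes, the setting of FDXR, 3 rose and 1 fell: the mitochondrial iron importer SLC25A37 rose by 1.44 ± 0.10 (SE), COX10 rose by 0.44 ± 0.08 (-0.01 after scaling to one median), and ISCA2 fell by 0.61 ± 0.06. The counts of that list were 7 and 3 without DMSO replicate 3. Of 16 genes of the BTG and TOB family and the CCR4-NOT deadenylase, the setting of BTG2, 2 rose and 2 fell, CNOT1 and CNOT9 fell by 0.52 ± 0.11 and fell by 0.39 ± 0.09, and PABPC1 and BTG1 rose, PABPC1 by 0.33 ± 0.07. The other CNOT1 probes changed by 0.12 and 0.07 and its matrix change was 0.15. The counts of that list were 1 higher and 0 lower in the matrix and 3 and 4 without DMSO replicate 3, and 0 genes were lower without DMSO replicate 2, TIC10 replicate 2 or TIC10 replicate 3. Of 9 quinone oxidoreductases, relatives of TP53I3 in function, 2 fell and 0 rose (1 at an unadjusted p under 0.05): CRYZ fell by 1.34 ± 0.11 and NQO1 fell by 0.53 ± 0.09. The other kept NQO1 probe changed by -0.21 (limma adjusted p = 0.339). Of 9 exonucleases related to AEN, 1 gene, REXO5, fell by 0.80 ± 0.07, and 0 rose (1 at an unadjusted p under 0.05). Of 7 ZMAT genes and RNA partners, 2 fell and 0 rose (also 0 at an unadjusted p under 0.05): ELAVL1, which binds AU-rich RNA with ZMAT3, fell by 0.95 ± 0.13 and HNRNPA1 fell by 0.51 ± 0.13. The other kept HNRNPA1 probe changed by -1.37 (limma adjusted p = 0.000712). Each of PPP1R13L, LIG1, CNOT1, CNOT9, PABPC1, HNRNPA1 and TK2 missed the threshold when some single arrays were left out, with the highest adjusted p at 0.103 for PPP1R13L, 0.0793 for LIG1 and 0.121 for HNRNPA1.

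**Figure D5:**
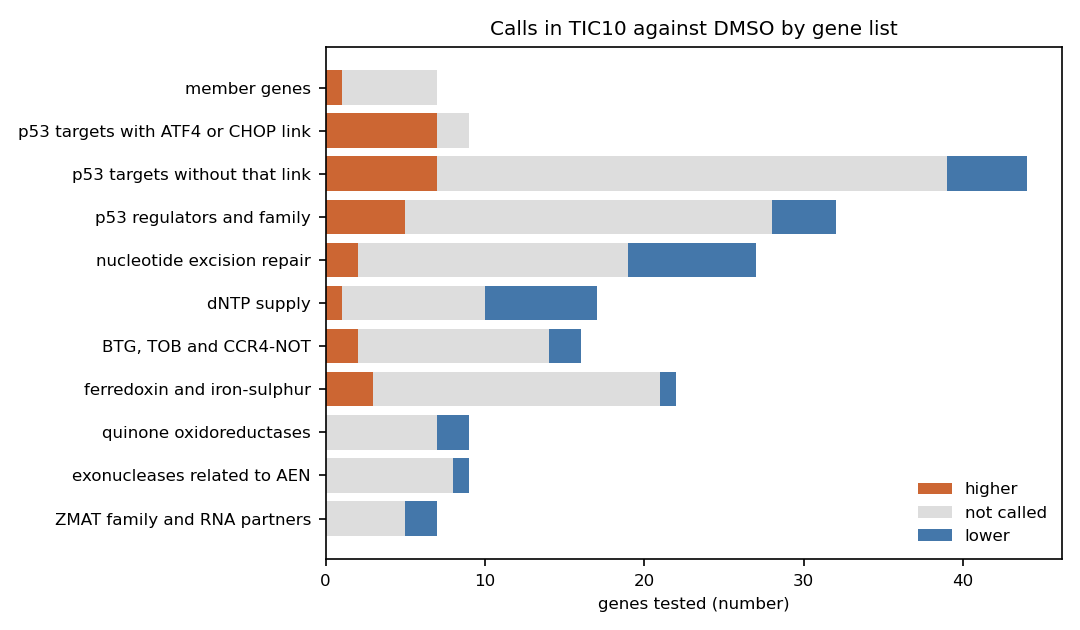
Number of tested genes called higher and lower with TIC10 in each gene list by limma at an adjusted p under 0.05. The list of p53 targets with a link to ATF4 or CHOP holds 7 higher and 0 lower of 9, and the deoxynucleotide supply list 1 higher and 7 lower of 17.

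The plot of calls by list shows both directions in the p53 targets without the link, and mostly lower calls in deoxynucleotide supply and nucleotide excision repair. The counts are read against 10.0% of genes called higher and 13.0% called lower.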

How the data were processed

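Total RNA of 6 samples was measured on Illumina bead arrays. The deposited bead table holds intensity values for 47319 probes, not normalized per the file headers, with no detection p-values. DMSO columns carry the name Control and were assigned by their number. The deposited series matrix holds log values that the authors processed and centred per probe, taken here as log2 values. No source used here names their base, scaling or reference.

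With limma 3.58.1 in R 4.3.3, intensities were background-corrected (normexp, offset 50), taken to log2 and then quantile normalized. Probes above percentile 40 of their array on at least 3 arrays were kept (29440). Symbols came from the array annotation: 30112 probes had 1, 8 had several and 17199 had none, and 30073 matched RefSeq by Entrez number. The brightest kept probe stood for a gene (14534 genes). TIC10 was compared with DMSO by lmFit and eBayes, two-sided. Benjamini-Hochberg adjustment ran over all kept probes. A single-gene exact permutation test could not go below p = 0.1. The steps were tested on simulated data.

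The members and lists were chosen with earlier results of these data known. All member probes are named, and for each list up to 4 called genes with the largest change. Alternatives were no background correction (offset 16), scaling to one median, cyclic loess, the series matrix, no filter, a stricter filter (percentile 60 on 6 arrays), 1 probe per gene, averaging probes of a gene, an eBayes intensity trend, a replicate block and leaving out each array. Same-numbered arrays of both groups deviated from their group means with correlations of -0.081, 0.134 and 0.003, so the numbers were not taken to pair the samples.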

Additional observations from a re-analysis of the deposited data

How the results depend on the processing

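Scaling arrays to one median called 0 members higher in place of 1, 7 p53 targets higher in place of 14, 0 member probes in place of 4 and 513 probes of all kinds higher in place of 2552. It also gave changes of -0.026 for MDM2, -0.17 for TP53I3 and -0.42 for XPC. The series matrix called 1 member probe higher, 1 p53 target lower in place of 5, and 704 probes higher and 629 lower, in place of 2552 and 2745. Its changes were -0.14 for MDM2, -0.11 for MDM4, -0.038 for AEN (ILMN_1814282), -0.55 for ZMAT3 (ILMN_2361104), 0.057 for RRM2B (ILMN_2170595) and -0.037 for XPC. The mean of a gene's probes called 2 members higher. The cause was not tested. Leaving out each array gave 0 to 2 members higher, 1 to 5 member probes higher, 9 to 21 targets higher and 3 to 8 lower, and 1463 to 3924 probes higher and 1628 to 4069 lower. Without TIC10 replicate 1 or 3, 9 targets were higher, and without DMSO replicate 3, 21 were. Changes without one array ran from -0.068 to 0.21 for MDM2, -0.12 to 0.00232 for RRM2B (ILMN_2170595), -0.015 to 0.22 for TP53I3 and -0.045 to 0.12 for XPC. Members called lower stayed at 0 under the 16 alternatives. With the replicate block, 1 member, 3 member probes and 15 targets were higher and 4 targets lower, and AEN (ILMN_3240321) had an adjusted p of 0.0551. Signal near background limits MDM2, MDM4 on DMSO replicate 3 and the probes that failed the filter.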
